A study of Homo sapiens with 12 samples.

Results

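The kinetochore and chromosomal passenger genes described here are 35 genes that encode proteins of the centromere, the kinetochore and the chromosomal passenger complex. Members were chosen by gene symbol, and all 35 were found among the 23710 gene rows of the count files, 34 under their own symbol and CENPU under its older symbol MLF1IP. The RNA-seq libraries come from RCC4, an established clear cell renal carcinoma line that lacks VHL, harvested 72 hours after they were transfected with siRNA (40 pmol). Experiment 1 compared 3 libraries of siMESH1#1, which targets the coding sequence of MESH1, with 3 libraries of a non-targeting siRNA (siNT). Experiment 2 compared 3 libraries of siMESH1#2, which targets the 3′UTR of MESH1, with its own 3 siNT libraries, so the siRNA and the experiment cannot be told apart. All cells were the same unmodified line, no rescue of MESH1 was among the samples analysed here, and the labels call the 3 libraries of a group biological replicates.

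Kinetochores assemble on centromeres, where nucleosomes that hold the histone H3 variant CENP-A recruit a constitutive network of CENP proteins. In mitosis this network carries the MIS12 and NDC80 complexes, the latter of which binds microtubules, and the SKA complex strengthens that grip. The fibrous corona and the checkpoint proteins report unattached kinetochores, while the chromosomal passenger complex places Aurora B at centromeres to correct faulty attachments. Many of these genes are transcribed mainly in G2 and M phase, and promoters of such genes often hold a cell cycle genes homology region (CHR), a short word bound by the MuvB core of the DREAM complex, or CCAAT boxes, which are bound by NF-Y.

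The 2 siRNAs share no seed, the bases 2 to 8 of the guide strand that can pair with 3′UTRs of unintended transcripts. The guides were derived as the reverse complement of the stated target sequences (for siMESH1#2, of the last 19 of its 21 bases) and are printed 5′ to 3′ with the seed in capitals, to show what the members' 3′UTRs were searched for. The labels of experiment 1 name the 3′UTR siRNA by another catalogue number than those of experiment 2, and the target sequence was taken from the latter, which hold its libraries.
siMESH1#1: cACAAUGUcagugauuccc
siMESH1#2: uAGUUAGCaggagaccuuc
A site for the seed of siMESH1#1 lay in the 3′UTR of 3 of the 35 members (CENPP, SKA2 and BUB3), against 15.5% of the genes tested. For siMESH1#2 it lay in 1 member (CENPN), against 5.50% of the genes tested.

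Promoter windows of the members are shown because members with a CHR word had a lower median change with siMESH1#2 than members without one. The RefSeq table of promoters (GRCh38.p14, 250 bases before to 50 after each start) held 28 of the 35 members and not KNTC1, BUB3, CENPH, CENPJ, CENPL, BIRC5 and CENPM. The words searched on both strands were TTTGAA and TTCGAA for the CHR, CCAAT for the CCAAT box, and TTTCCCGC, TTTGGCGC and TTTCGCGC for E2F, none of which contains another. The stretches of 30 bases below run along the strand of the gene, with the CHR word in capitals.
CENPA: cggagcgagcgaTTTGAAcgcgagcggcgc
CDCA8: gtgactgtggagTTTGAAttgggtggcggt
INCENP: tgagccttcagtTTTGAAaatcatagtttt
CENPN: gcaattggtggcTTTGAAggcgcggcgagc
NUF2: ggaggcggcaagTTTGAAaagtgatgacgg
CENPW: gttggcggcggaTTCGAAcgttcggactga
These stretches lie on the plus strand at chr2:26786026-26786055 for CENPA, chr1:37692481-37692510 for CDCA8, chr11:62123989-62124018 for INCENP, chr16:81007205-81007234 for CENPN, chr1:163321958-163321987 for NUF2 and chr6:126340120-126340149 for CENPW. In 5 of them the letters TTTGAA stand between 23 bases before and 16 bases after the start. In CENPW the word is TTCGAA, 17 bases after the start. The stretches printed cover only some of the 13 members with a CHR word, so they do not show the spread of positions. Among the others, words lay 34 (SKA1), 36 (CENPO) and 40 (CENPF) bases after the start. SPC25 had 1 word 247 bases before the start and 1 at 3 bases before it. ZWINT, SKA3 and NDC80 held the word on the other strand (TTCAAA). A CHR word was present in 13 of the 28 members (46.4%) and in 17.4% of 16069 genes with a promoter in the table. CCAAT was present in 17 members (60.7%) and 42.1% of genes, and an E2F word in 3 members (10.7%) and 4.47% of genes.

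The libraries of experiment 1 held 34063155 to 49134129 reads in genes, and those of experiment 2 held 24787804 to 31651125. Counts were tested with edgeR's quasi-likelihood test with Benjamini-Hochberg adjustment over all genes, called at an adjusted p-value under 0.05, and levels are TMM-scaled CPM (reads of a gene relative to all reads in genes). Libraries of siMESH1#1 differed among themselves far more than those of the other groups, with a biological coefficient of variation of 0.299 in experiment 1 and 0.0490 in experiment 2. MESH1, listed as HDDC3, had 8.23, 6.46 and 7.75 CPM with siNT and 0.158, 0 and 0.316 CPM with siMESH1#1, and 13.9, 13.1 and 12.7 CPM with siNT against 1.25, 1.18 and 1.72 CPM with siMESH1#2. The targeted gene was thus below every siNT library in all 6 knockdown libraries. All 7 RCC4 markers were present with siNT, PAX8 at 168 and 443 CPM, PAX2 at 18.1 and 122.97 CPM, CA9 at 30.5 and 187 CPM, VIM at 3511 and 5849 CPM, KRT8 at 90.6 and 227 CPM, KRT18 at 77.3 and 83.5 CPM and NDUFA4L2 at 27.6 and 1002 CPM in experiments 1 and 2. With siMESH1#1 all but VIM (3486 CPM) were called lower, NDUFA4L2 at 0.624, KRT18 at 2.76, CA9 at 3.81, PAX2 at 6.07, KRT8 at 11.7 and PAX8 at 58.4 CPM. Among all genes tested, 37.2% were called lower with this siRNA. After the correction for GC content described below, PAX8 was not called with siMESH1#1 (log2 change -0.22). PAX2 (1.28) and VIM (0.59) were then called higher, and NDUFA4L2, KRT18, CA9 and KRT8 stayed lower. With siMESH1#2 the 7 markers lay between 66.3 CPM (KRT18) and 5147 CPM (VIM). Of the markers of other cell types, PTPRC, CD3E, PECAM1, CDH5, LUM and DCN were at 0.04 CPM or less in each group mean. The leukocyte marker CD68 was present at 54.7 and 105 CPM with siNT and at 3.57 and 140 CPM with siMESH1#1 and siMESH1#2.

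With siMESH1#2, 30 of the 35 members fell and none rose, against a background of 26.7% of 13568 genes called lower and 26.6% called higher. The median log2 change of the members was -1.28, which leaves 41.3% of the siNT level, against a median of 0.01 over all genes tested. In 31 members every siMESH1#2 library lay below every siNT library, which was so for 29.9% of the genes tested. The members that fell furthest were SPC25 (log2 change -2.59), SKA1 (-2.55), NUF2 (-2.51), CENPA (-2.47) and CDCA8 (-2.40). CENPT, NSL1, PMF1, SKA2 and CENPV were not called, with log2 changes between -0.11 and 0.06, though CENPT was called lower without siNT replicate 3 (-0.19). In these bulk libraries fewer cells in mitosis and less of each transcript per cell cannot be told apart. Markers of cycling cells were lower too: MKI67 fell by 2.21, TOP2A by 2.03 and PCNA by 0.73 on the log2 scale with siMESH1#2, and their part in the members' change was not tested.

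**Figure D1:**
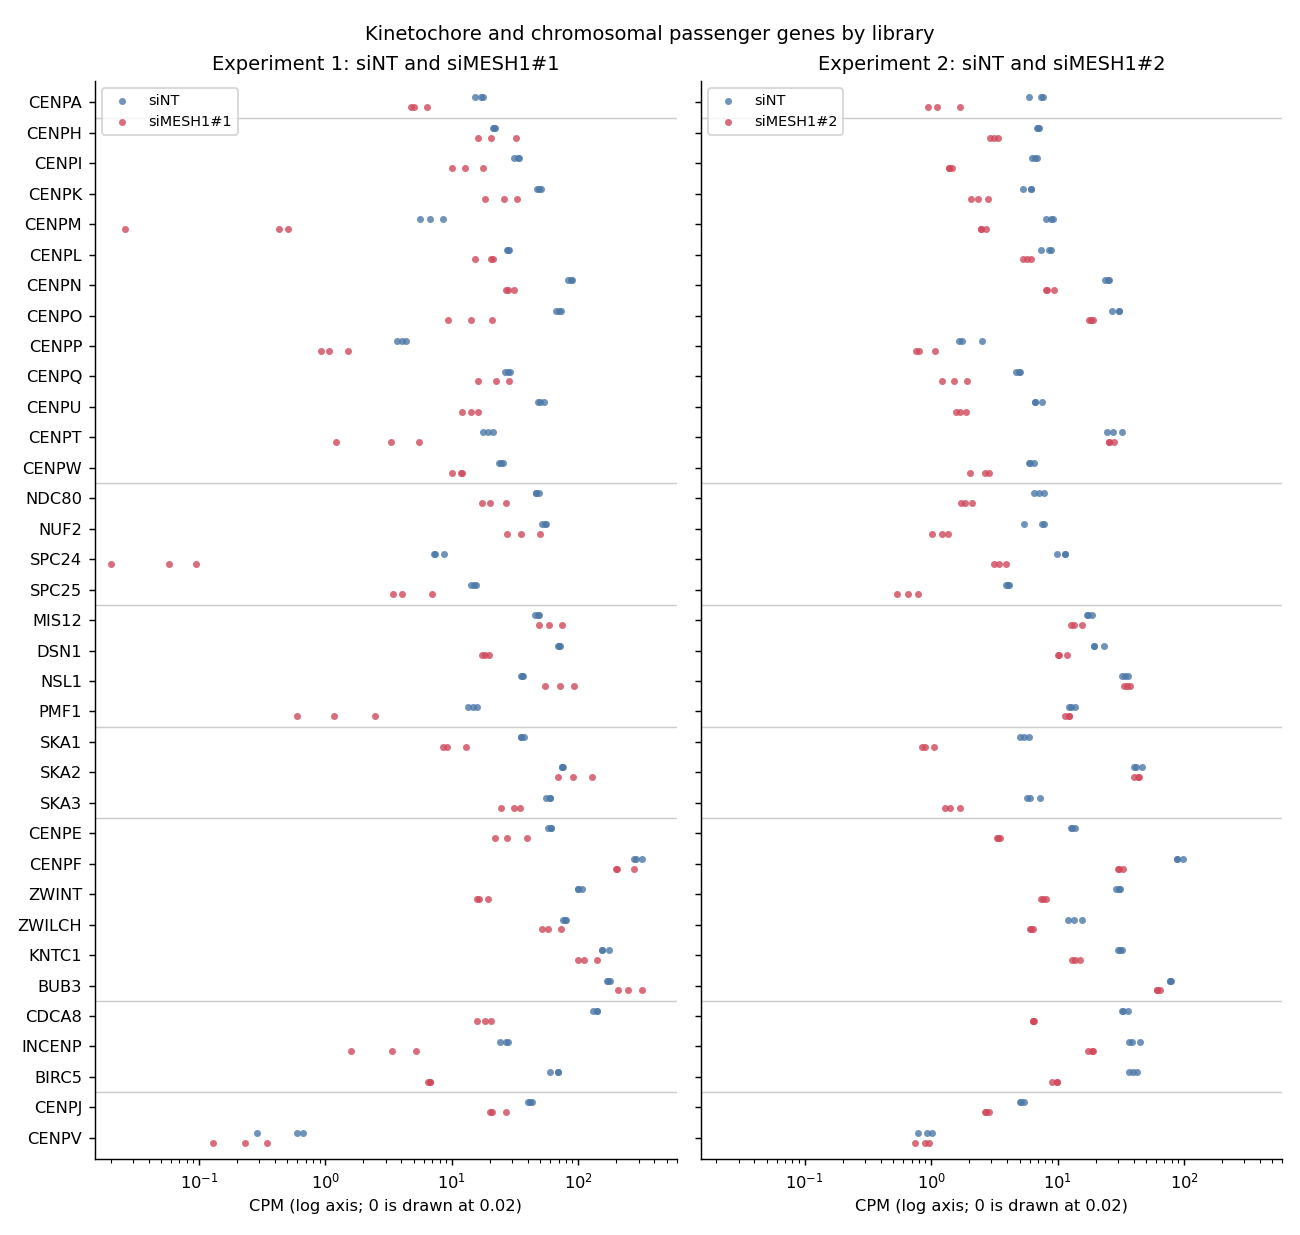
Levels of the 35 members in each of the 12 libraries, in CPM on a log axis, with 1 point per library, siNT in blue and siMESH1 in red, and lines between complexes. With siMESH1#2 the red points lie below the blue ones without overlap in 31 members, and with siMESH1#1 in 27.

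With siMESH1#1, 25 of the 35 members fell and 2 rose, NSL1 and BUB3, against a background of 37.2% of 13395 genes called lower and 36.9% called higher. The median log2 change of the members was -1.15, against -0.05 over all genes tested, and it lay between -1.33 and -1.13 when single libraries were left out. Groups did not overlap, with siMESH1#1 lower, in 27 members and in 42.5% of genes tested. The 8 members that were not called were CENPH, CENPQ, NUF2, MIS12, SKA2, CENPF, ZWILCH and CENPV. Without siMESH1 replicate 2, CENPQ, NUF2, CENPF and ZWILCH were called lower as well (29 members in all), and without siMESH1 replicate 3, MIS12 (0.46) and SKA2 (0.54) were called higher. CENPL and KNTC1 were no longer called without siMESH1 replicate 1 or without any single siNT replicate (adjusted p between 0.0551 and 0.111). Within the same lane of the sequencer, 31 of the 35 members were lower in the siMESH1#1 library of lane 6 and 32 in that of lane 4. Their medians were -1.20 and -1.45 on the scale of log2(CPM + 0.5), against -0.03 and -0.02 over all genes tested. The share of all genes that were lower in the same lanes was not counted. MKI67 fell by 1.91, TOP2A by 0.79 and PCNA by 0.62 on the log2 scale with this siRNA, and their part was not tested.

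The size of the change with siMESH1#1 moved with the GC content of the transcript. Across the 35 members, GC content and the log2 change had a Pearson's r of -0.67 and a Spearman's rho of -0.71 with siMESH1#1, and 0.19 and 0.13 with siMESH1#2, where the members of each value share their libraries. The 9 members under 40% GC had a median log2 change of -0.52 with siMESH1#1, while all 1991 genes of that class had a median of 1.09. All 9 lay below the median of their class. Of them, 4 were called lower and 1 higher, while 6.03% of the genes of that class were called lower. At 40 to 50% GC, 15 of 16 members lay below the median of their class, which was 0.57, and the members' median was -1.05. Of these members 12 were called lower and 1 higher, while 14.6% of the genes of that class were called lower. At 50% GC and over, the members' median was -2.93 against -1.84 for 5702 genes, of which 69.6% were called lower. Of the 10 members, 8 lay below the median of those genes and 9 were called lower.

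After a correction of each library for its trend with GC content, 34 of the 35 members fell with siMESH1#1 and none rose, against 45.5% of genes called lower. The median of all genes then lay at -0.51 rather than -0.05, and that of the members at -2.18, with 34 of 35 members below the median of all genes. NSL1 and BUB3 changed direction, to -0.52 and -0.85, which for NSL1 is about the median of all genes under this correction (-0.51). CENPV was the only member not called, at 1.11. The same correction of experiment 2 left 31 members lower, against 30.5% of genes. Across members, the changes with both siRNAs had a Pearson's r of 0.27 and a Spearman's rho of 0.31 before the correction of siMESH1#1, and 0.59 and 0.74 after it, over 35 genes that are not independent of each other. The experiments share no libraries.

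**Figure D2:**
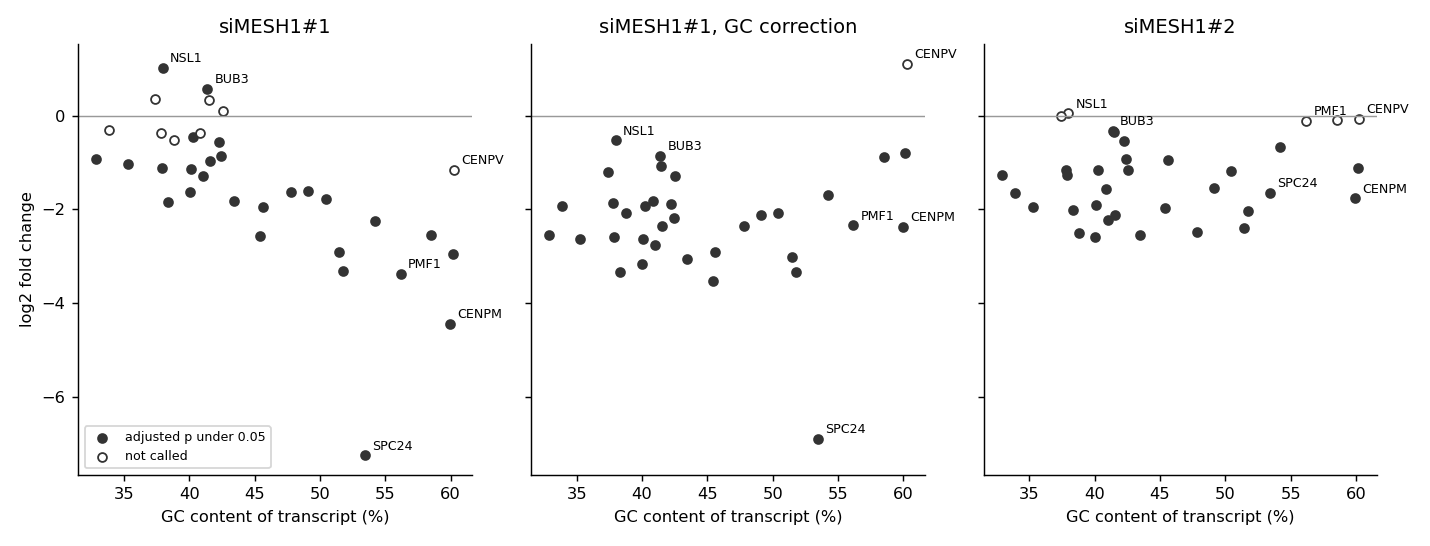
GC content of the transcript in percent and log2 fold change of each of the 35 members with siMESH1#1, with siMESH1#1 after the GC correction and with siMESH1#2, with filled points called at an adjusted p under 0.05. The changes fall with GC content in the left panel (r -0.67), and SPC24 stays the lowest point after the correction, at -6.89.

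Both siRNAs called 23 of the 35 members lower, against 15.1% of 12824 genes tested with both. A further 6 fell with siMESH1#2 alone by the call, 2 with siMESH1#1 alone (CENPT and PMF1), and BUB3 was called in opposite directions. CENPT and PMF1 have GC contents of 58.5% and 56.2%, and PMF1 shares exons with the readthrough gene PMF1-BGLAP, whose own row held 0 reads in all 12 libraries, so the counts of PMF1 depend on how shared reads were assigned. The difference between the 2 changes passed the test for 26 members, 15 of them less lowered or raised with siMESH1#1 and 11 more lowered with it, while 69.7% of all genes passed the same test. That test shares 1 dispersion per gene over groups of unlike spread, so its p-values can be too small. After the GC correction 27 members differed, all with the lower value for siMESH1#1, against 65.4% of genes. The median difference was then -0.89 for the members and -0.75 for all genes.

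**Figure D3:**
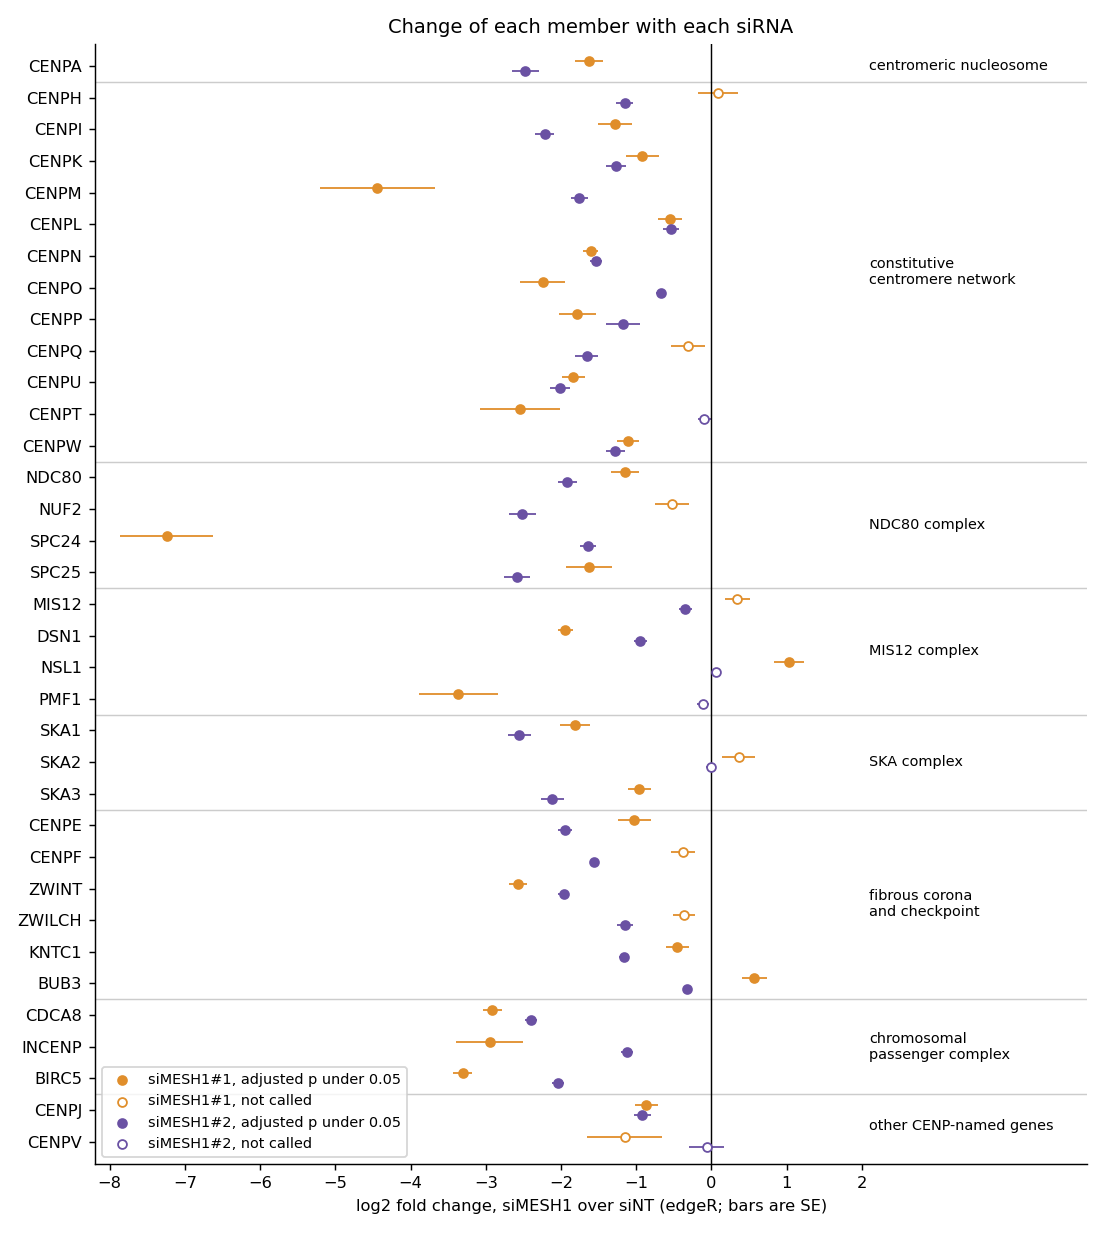
Log2 fold change of each member with siMESH1#1 (orange) and siMESH1#2 (purple), siMESH1 over its own siNT, with bars for the SE of the edgeR fit and open points for members not called. All NDC80 complex, corona and passenger members lie left of 0 with siMESH1#2, between -2.59 and -0.32, while NSL1, PMF1 and SKA2 lie near it.

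CENPA, the histone H3 variant that marks centromeres, fell with both siRNAs. It had 16.98, 17.7 and 15.3 CPM with siNT and 5.03, 6.32 and 4.78 CPM with siMESH1#1, and 7.60, 7.40 and 5.89 CPM with siNT against 0.936, 1.11 and 1.68 CPM with siMESH1#2. In each experiment the highest siMESH1 value was below the lowest siNT value. The log2 change was -1.63 (SE 0.187, edgeR adjusted p = 0.000768) with siMESH1#1 and -2.47 (SE 0.176, adjusted p = 4.56e-09) with siMESH1#2.

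In the constitutive centromere network, 10 of 12 members fell with siMESH1#1 and 11 of 12 with siMESH1#2, with medians of -1.44 and -1.27. CENPN, which binds the CENP-A nucleosome, had 87.3, 82.3 and 89.3 CPM with siNT against 27.6, 30.8 and 26.7 CPM with siMESH1#1. In experiment 2 it had 25.4, 25.0 and 23.8 CPM with siNT against 9.29, 8.24 and 8.05 CPM with siMESH1#2. Each set of 3 knockdown libraries was well below its siNT libraries, and the log2 changes, -1.61 (SE 0.104, edgeR adjusted p = 0.000243) and -1.54 (SE 0.078, adjusted p = 6.20e-11), differed by -0.22 (SE 0.125, adjusted p = 0.138), which did not pass the test. The difference did pass with library size scaling (-0.33, adjusted p = 0.0181), with the GC correction (-0.83, 0.000169) and without siMESH1#1 replicate 2 (-0.29, 0.0311). The median difference over all genes tested was -0.24 in the main fit, -0.34 with library size scaling and -0.75 with the GC correction. CENPN thus lay near the median of all genes in each of these settings.

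Members of the CENP-H/I/K/M group, a core of the network, split by siRNA. CENPI (-1.28 and -2.22), CENPK (-0.92 and -1.27) and CENPM (-4.44 and -1.76, and -2.37 with siMESH1#1 after the GC correction) fell with both, whereas CENPH was at 0.09 with siMESH1#1 (not called) and fell by 1.15 with siMESH1#2. CENPM had 16, 1 and 15 reads in the siMESH1#1 libraries against 251 to 450 with siNT, so its ratio rests on few reads: 32 reads in all leave 3.62% of the siNT share (exact 95% interval 2.46 to 5.14%, counting error only). Of the CENP-O/P/Q/U group, which adds to microtubule attachment, CENPO (-2.24 and -0.67), CENPP (-1.78 and -1.18) and CENPU (-1.84 and -2.02) fell with both siRNAs. CENPQ was at -0.31 with siMESH1#1, not called, and fell by 1.66 with siMESH1#2. CENPL, the partner of CENPN, fell by 0.55 and 0.54. The histone-fold pair CENPT and CENPW differed: CENPW fell by 1.11 and 1.28, whereas CENPT, the arm that recruits NDC80, was at -2.54 with siMESH1#1 (-0.88 with the GC correction) and -0.10 with siMESH1#2.

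All 4 members of the NDC80 complex, the main microtubule receptor, fell with siMESH1#2 (median log2 change -2.21), as did 3 of 4 with siMESH1#1. SPC24, which anchors the complex to the inner kinetochore, had 465, 332 and 336 reads with siNT and 3, 0 and 2 reads with siMESH1#1. These 5 reads leave 0.505% of the siNT share (exact 95% interval 0.164 to 1.18%, counting error only), and the fitted log2 change of -7.24 depends on the prior count; it was -7.99 without siMESH1 replicate 1 and -6.62 without siMESH1 replicate 2. In experiment 2 SPC24 had 11.4, 11.5 and 9.83 CPM with siNT against 3.43, 3.14 and 3.89 CPM with siMESH1#2 (log2 change -1.64, SE 0.112, edgeR adjusted p = 2.52e-09). SPC24 was nearly lost in every siMESH1#1 library and kept about 32.0% of its level with siMESH1#2. The difference was -5.75 on the log2 scale (SE 0.425, edgeR adjusted p = 2.96e-06). With siMESH1#1 alone the SE was already 0.619, and the model of the difference shares 1 dispersion over all groups. The SE and p-value of the difference can therefore be too small. The SPC24 transcript has a GC content of 53.4% and no seed site of siMESH1#1 in its 3′UTR. SPC25 fell by 1.63 and 2.59 and NDC80 by 1.15 and 1.91 with siMESH1#1 and siMESH1#2. NUF2 was at -0.52 (not called) with siMESH1#1 and fell by 2.51 with siMESH1#2. It was called lower with siMESH1#1 under library size scaling, the filter of 10 reads in every library, 1 model of 4 groups, the lane term and the GC correction (adjusted p between 6.58e-05 and 0.0215).

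The MIS12 complex, the bridge between the inner network and NDC80, had the median nearest to 0 of all complexes with siMESH1#2, where 2 of 4 members fell and the median log2 change was -0.23. DSN1, a subunit that Aurora B phosphorylates, had 71.8, 69.6 and 70.3 CPM with siNT against 18.2, 19.6 and 17.3 CPM with siMESH1#1, and 19.4, 23.2 and 19.5 CPM against 10.2, 10.1 and 11.8 CPM with siMESH1#2. The groups were apart in both experiments, with log2 changes of -1.94 (SE 0.105, edgeR adjusted p = 0.000214) and -0.94 (SE 0.090, adjusted p = 1.85e-07). MIS12 itself was at 0.35 with siMESH1#1 (not called) and fell by 0.34 with siMESH1#2. NSL1 had 35.0, 36.3 and 35.9 CPM with siNT against 71.6, 92.1 and 54.4 CPM with siMESH1#1, above every siNT library, but its level in experiment 2 overlapped, with 33.9, 32.4 and 35.9 CPM against 37.4, 35.3 and 33.5 CPM. PMF1 was at -3.37 with siMESH1#1 (-4.08 without siMESH1 replicate 3) and -0.11 with siMESH1#2.

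In the SKA complex, SKA1 and SKA3 fell with both siRNAs and SKA2 was not called with either. SKA1, which carries the microtubule-binding domain, had 37.0, 35.1 and 35.3 CPM with siNT against 9.14, 12.95 and 8.51 CPM with siMESH1#1. In experiment 2 it had 5.45, 5.06 and 5.99 CPM against 0.902, 0.844 and 1.06 CPM with siMESH1#2. No knockdown library reached the lowest siNT library, and the log2 changes were -1.81 (SE 0.198, edgeR adjusted p = 0.000672) and -2.55 (SE 0.155, adjusted p = 5.87e-10). SKA3 fell by 0.96 and 2.12. SKA2 was at 0.36 with siMESH1#1 and -0.01 with siMESH1#2.

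Of the fibrous corona and checkpoint members, all 6 fell with siMESH1#2 (median -1.36), and 3 fell and 1 rose with siMESH1#1 (median -0.41). ZWINT, which ties the RZZ complex to KNL1, had 107, 99.3 and 99.0 CPM with siNT against 16.3, 15.9 and 19.2 CPM with siMESH1#1, and 31.0, 28.7 and 30.8 CPM against 8.11, 7.43 and 7.62 CPM with siMESH1#2. It fell by 2.57 (SE 0.120, edgeR adjusted p = 0.000180) and by 1.97 (SE 0.075, adjusted p = 1.68e-12) on the log2 scale. KNTC1, the large subunit of the RZZ complex, (-0.45 and -1.16) and the kinesin CENPE (-1.02 and -1.95) fell with both siRNAs. ZWILCH (-0.36) and the coiled-coil protein CENPF (-0.38) were not called with siMESH1#1 and fell by 1.15 and 1.56 with siMESH1#2. Both were called lower with siMESH1#1 under the settings that called NUF2, with adjusted p between 0.000288 and 0.0358 for ZWILCH and between 0.000219 and 0.0226 for CENPF.

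BUB3, a checkpoint protein that reads phosphorylated KNL1, was the only member called in opposite directions. It had 177, 171 and 169 CPM with siNT against 246, 319 and 205 CPM with siMESH1#1 (log2 change 0.57, SE 0.168, edgeR adjusted p = 0.0216). In experiment 2 it had 76.9, 78.7 and 77.8 CPM against 61.0, 64.7 and 60.7 CPM with siMESH1#2 (log2 change -0.32, SE 0.051, adjusted p = 4.46e-05). The siMESH1#1 libraries were all above siNT and the siMESH1#2 libraries all below it. The rise with siMESH1#1 was no longer called without siMESH1 replicate 1 or without any single siNT replicate (edgeR adjusted p between 0.0529 and 0.0705). Nor was it called with library size scaling (0.0726), the lane term (0.0741) or a filter of 10 reads in every library (0.0593). The GC correction turned it into a fall of 0.85 (edgeR adjusted p = 0.00147), where the median of all genes was -0.51. The 3′UTR of BUB3 holds 2 seed sites of siMESH1#1.

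The 3 non-catalytic members of the chromosomal passenger complex fell with both siRNAs, with medians of -2.95 and -2.04. BIRC5 (survivin), which docks the complex on centromeric chromatin, had 68.7, 60.1 and 68.9 CPM with siNT against 6.77, 6.71 and 6.47 CPM with siMESH1#1, and 39.4, 42.4 and 37.0 CPM against 9.92, 8.95 and 9.94 CPM with siMESH1#2. About 10.1% and 24.2% of the siNT level was left, with log2 changes of -3.31 (SE 0.122, edgeR adjusted p = 0.000168) and -2.04 (SE 0.076, adjusted p = 1.28e-12). The log2 changes were -2.92 and -2.40 for CDCA8 (borealin) and -2.95 and -1.12 for INCENP, the scaffold that activates Aurora B. After the GC correction BIRC5 stayed at -3.33 and CDCA8 at -3.01 with siMESH1#1. INCENP, with a GC content of 60.1%, moved to -0.79 (edgeR adjusted p = 0.00433). Under that correction the median of all genes was -0.51 and 45.5% of genes were called lower.

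Outside the kinetochore complexes, CENPJ is a centriole protein that carries a CENP name. It had 42.7, 39.7 and 41.4 CPM with siNT against 20.05, 27.1 and 20.9 CPM with siMESH1#1, and 5.42, 5.06 and 5.14 CPM against 2.74, 2.87 and 2.67 CPM with siMESH1#2. Its groups were apart in both experiments, with falls of 0.87 (SE 0.154, edgeR adjusted p = 0.00338) and 0.92 (SE 0.118, adjusted p = 5.98e-06) on the log2 scale. CENPV was at the limit of the data, with 0.601, 0.288 and 0.666 CPM in siNT against 0.348, 0.130 and 0.230 CPM in siMESH1#1, and 1.01, 0.924 and 0.780 CPM against 0.902, 0.743 and 0.957 CPM in siMESH1#2. It was under 1 CPM in all 4 group means, the groups overlapped in both experiments, and at 5 to 32 reads per library it did not pass the test with either siRNA. With siMESH1#1 it was called lower with library size scaling (-1.40, edgeR adjusted p = 0.0473), in 1 model of 4 groups (-1.32, 0.00855) and without siNT replicate 2 (-1.43, 0.0484), and not with the GC correction (1.11).

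Members with a CHR word in the promoter window had a lower median change with siMESH1#2 than members without one. All 13 with the word fell, between -2.59 (SPC25) and -0.67 (CENPO), with a median of -1.97. Of the 15 without it, 10 fell, the median was -1.15 and the values ran from -2.22 (CENPI) to 0.06 (NSL1). The 5 members that were not called with siMESH1#2 all belong to the group without the word. The ranges overlap and genes are not independent replicates, so no test is given. With siMESH1#1 the medians were -1.63 with the word and -1.15 without it, and -2.36 and -2.08 after the GC correction. For CCAAT the medians with siMESH1#2 were -1.54 with the word and -1.91 without it. For E2F they were -2.02 in the 3 members with a word (CENPA, CENPU and MIS12) and -1.54 in the 25 without one.

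**Figure D4:**
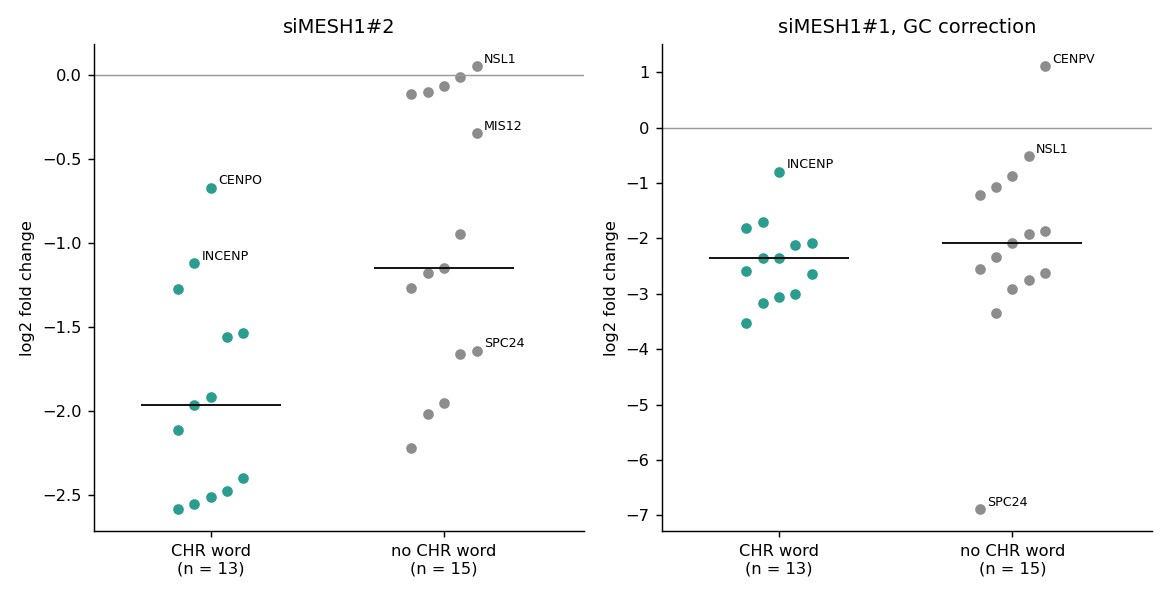
Log2 fold change with siMESH1#2 (left) and with siMESH1#1 after the GC correction (right) of the 28 members with a promoter in the RefSeq table, split by whether the window holds a CHR word, with 1 point per gene and a line at the median. With siMESH1#2 the medians are -1.97 and -1.15, and with siMESH1#1 after the correction they are -2.36 and -2.08.

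Levels per length, in CPM per kilobase of transcript, ordered the members differently in the siNT libraries of the 2 experiments. In experiment 1 the highest were CDCA8 (55.8), ZWINT (54.3) and CENPN (34.8), and the lowest were CENPV (0.445) and CENPP (0.461). In experiment 2 the highest were ZWINT (16.1), SKA2 (15.3), BIRC5 (15.1) and NSL1 (14.7). By CPM, 30 of the 35 members were higher with the siNT of experiment 1 than with that of experiment 2. The median log2 ratio of the members was 1.74 (a ratio of 3.33) on the scale of CPM + 0.5, against -0.08 over all genes tested. TMM scaling was done within each experiment, so the levels of the 2 experiments share no scaling. The ratio of mean CPM ran from 9.21 for SKA3 and 8.32 for CENPK down to 0.573 for CENPV. Summed over the members, the siNT libraries held 2007 to 2056 CPM in experiment 1 and 685 to 695 CPM in experiment 2, against 1080 to 1572 CPM with siMESH1#1 and 361 to 367 CPM with siMESH1#2. Across members, the log2 ratio of the siNT levels had a Pearson's r of -0.76 and a Spearman's rho of -0.63 with GC content, and its part in the ratio was not tested.

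A list of 23 further kinetochore genes, which holds genes outside the 35 members such as KNL1, AURKB and the mitotic checkpoint kinases, was tested in the same fits. With siMESH1#2, 19 of 23 fell and none rose (median log2 change -1.38), against 26.7% of genes called lower and 26.6% called higher. With siMESH1#1, 14 fell and 1 rose (median -0.82), against 37.2% of genes called lower and 36.9% called higher. The 1 that rose was CENPC (0.95), named after its value was seen. The GC correction turned it to -0.59, near the median of all genes under that correction (-0.51). Of the 21 with a GC content, 20 fell with siMESH1#1 after the GC correction, against 45.5% of genes called lower. The largest fall by the smaller of its changes was that of KIF2C, a kinesin that depolymerizes microtubules at faulty attachments, which had 200, 184 and 201 CPM with siNT against 16.3, 13.1 and 14.04 CPM with siMESH1#1. In experiment 2 KIF2C had 45.1, 46.7 and 42.5 CPM against 6.62, 6.38 and 7.95 CPM with siMESH1#2. No library of either siMESH1 group came near siNT, and the log2 changes were -3.75 (SE 0.123, edgeR adjusted p = 0.000165) and -2.68 (SE 0.083, adjusted p = 2.44e-13). AURKB, the kinase of the passenger complex, fell by 4.85 and 1.91. With siMESH1#1 it had 44, 18 and 105 reads (SE 0.672), and its change was -3.73 with the GC correction. None of the 23 rose with both siRNAs.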

How the data were processed

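RNA-seq counts of 12 RCC4 libraries were analysed, in 4 groups given by their labels. As deposited, the values are raw read counts for each gene symbol, which the authors made, by the submitters' processing notes, from 50 bp single-end reads with HISAT2 and HTSeq on hg19, with no versions given in the sources used here. Rows that name no gene, 38.9 to 49.3% of all counted records per library, were left out. Records of low alignment quality were 6.31 to 7.59% per library in experiment 1 and 0 in experiment 2. Records in no annotated feature were 18.4 to 20.8% with siMESH1#1 and 14.7 to 15.5% with its siNT. Genes with a read numbered 14482 to 14944 and 15743 to 15775 in these groups. The part of these differences in the changes was not tested. The deposited DESeq2 tables hold the authors' mean counts, fold changes and p-values and were not used. The number of columns of other samples was 0.

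Each siMESH1 group was compared with the siNT of its experiment with edgeR 4.0.16 in R 4.3.3 (filterByExpr, TMM, quasi-likelihood F test, Benjamini-Hochberg adjustment over all genes tested), and the difference of the changes was tested in 1 model of all 12 libraries, so it need not equal the difference of the separate fits. SE is the log2 change divided by the square root of F. The model of 12 libraries shares 1 dispersion per gene over the 4 groups, although the siMESH1#1 libraries spread more than the others. Its SEs and p-values for the differences can therefore be too small. For the GC correction, log2 CPM was smoothed on GC content in each library (lowess, span 0.3) and the smooth entered the model as offset. GC content, lengths and 3′UTRs come from GENCODE release 29 (GRCh38), matched by symbol (21257 by name, 1100 by an older symbol, 1353 not at all of 23710), with 1 coding transcript per gene, and its coordinates are not used. At 1 CPM a gene rests on about 24.8 to 49.1 reads. The steps were tested on simulated data.

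The members, lists and alternatives were chosen with earlier results of these data known. Values in every library are given for HDDC3, for the member of each complex with the smallest value of the larger of its 2 p-values, for members called in opposite directions or under 1 CPM in all groups of an experiment, and for the other kinetochore gene with the largest fall. NSL1 is given by library and CENPM by reads in addition, chosen after their values were seen. Alternatives were DESeq2 1.42.0, library size scaling, other filters on low counts, 1 model of 4 groups, a replicate block, a lane term, the GC correction and leaving out each library. Deviations from the group means of samples with the same replicate number had r of -0.09, 0.32 and 0.20 in experiment 1. In experiment 2 they lay between -0.10 and 0.03. Samples with different numbers had r between -0.34 and 0.24 in experiment 1 and between -0.11 and 0.18 in experiment 2. Numbers were not used to pair libraries in the main fits.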

Additional observations from a re-analysis of the deposited data

Results flagged for a closer look

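For 26 members the change with siMESH1#1 differed from that with siMESH1#2 in the test of the difference, as it did for 69.7% of all genes tested. The p-values of this test can be too small, since it shares 1 dispersion per gene over groups of unlike spread. Differences are log2 changes with siMESH1#1 minus those with siMESH1#2. Of the centromere members, CENPA stood at 0.70, CENPH at 1.09, CENPI at 0.78, CENPQ at 1.20, CENPM at -2.86, CENPO at -1.72 and CENPT at -2.60. In the NDC80 complex the values were 0.62 for NDC80, 1.84 for NUF2 and -5.75 for SPC24. In the MIS12 and SKA complexes they were 0.54 for MIS12, -1.14 for DSN1, 0.82 for NSL1, -3.41 for PMF1, 0.59 for SKA1 and 1.00 for SKA3. Corona and checkpoint members had 0.78 (CENPE), 1.03 (CENPF), -0.75 (ZWINT), 0.63 (ZWILCH), 0.56 (KNTC1) and 0.75 (BUB3), and the passenger members -0.67 (CDCA8), -1.98 (INCENP) and -1.42 (BIRC5). CENPV, under 1 CPM, had -1.25. After the GC correction 14 of the 15 differences above 0 turned negative, while NUF2 stood at 0.28 (adjusted p = 0.255), and CENPM (-0.81, adjusted p = 0.106), INCENP (0.11, 0.498), CENPV (0.92, 0.125), CENPA (-0.12, 0.705), CENPQ (-0.41, 0.148), SKA3 (-0.43, 0.102) and CENPF (-0.44, 0.0567) no longer passed the test, all by edgeR. Of the others, SPC24 stayed at -5.45, PMF1 at -2.40 and BIRC5 at -1.52. The median difference over all genes tested was -0.24 before the GC correction and -0.75 after it. A negative value after the correction is therefore not by itself lower than that of most genes. Without single libraries the call was lost for CENPA, CENPV, SKA1, MIS12 and NDC80. The experiments differ in siRNA, lane and control, which cannot be told apart.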

How the results depend on the processing

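Under every alternative the medians stayed below 0 and the counts of lower members within 1.5 times: 25 members called lower with siMESH1#1 became 23 to 34, 30 with siMESH1#2 became 27 to 31, 23 with both became 21 to 31, and 26 that differ between the siRNAs became 21 to 28. The 2 members called higher with siMESH1#1 became 1 with library size scaling, with 10 reads in every library and with a lane term, 0 with the GC correction, and 1 to 4 without single libraries. The median of the members moved with the GC correction to -2.18 with siMESH1#1 and to -1.41 with siMESH1#2, and lay between -1.33 and -1.13 and between -1.40 and -1.28 without single libraries. The GC correction reversed the change with siMESH1#1 of CENPH (-1.28), MIS12 (-1.07), NSL1 (-0.52), SKA2 (-1.21) and BUB3 (-0.85), and the difference between the siRNAs of CENPA (-0.12), CENPH (-0.33), CENPI (-0.71), CENPK (-1.43), CENPQ (-0.41), CENPU (-1.49), CENPW (-1.49), NDC80 (-0.89), SPC25 (-0.75), MIS12 (-0.91), NSL1 (-0.74), SKA1 (-0.73), SKA2 (-1.37), SKA3 (-0.43), CENPE (-0.83), CENPF (-0.44), ZWILCH (-0.89), KNTC1 (-0.92), BUB3 (-0.71), INCENP (0.11) and CENPV (0.92), and it ended that of NUF2 (0.28) and CENPM (-0.81). Library size scaling moved the median of all genes with siMESH1#1 from -0.05 to -0.31, and the GC correction to -0.51. The median difference between the siRNAs over all genes moved from -0.24 to -0.34 with library size scaling and to -0.75 with the GC correction. The replicate block left 25 members lower with siMESH1#1, 30 with siMESH1#2 and 24 that differ. It ended the call of CENPL with siMESH1#1 and of the difference for CENPA and SKA1, and CENPF was called (-0.39). In 1 model of 4 groups CENPO, MIS12 and BUB3 were no longer called with siMESH1#2 (adjusted p between 0.0600 and 0.123). Without CENPU, whose row carries an older symbol, 24 and 29 of 34 members were lower (chosen after seeing the data). With 10 reads in every library, 32 members could be tested with siMESH1#1. The difference between the siRNAs was no longer called for CENPA without 8 of the 12 libraries taken singly, for CENPV without 10, for SKA1 without 9, for MIS12 without 7 and for NDC80 without 6 (adjusted p up to 0.116), nor for CENPA with library size scaling (0.0667).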
